A study of Mus musculus with 2 samples.

Results

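The genes followed here are 10 cytokine receptor chains of lymphocytes, Il2ra, Il2rb, Il2rg, Il15ra, Il4ra, Il7r, Il9r, Il18r1, Il1rl1 and Il23r, taken by name from the 31053 genes counted in single cells of mouse ear epidermis. Wild-type female FVB/NJ mice, 8 weeks old, had received 1 intradermal injection into the ear of antibody against Skint1, a keratinocyte protein of the butyrophilin-like type, or of an isotype control antibody. At day 7 live cells that carried CD45 and lacked EpCAM and MHC class II were sorted from epidermal suspensions and each treatment gave 1 droplet library read from the 3′ end of transcripts. No genetic change was made, and both groups shared the injection, the sort and the strain.

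Barcodes with 500 to 2500 detected genes and at most 12% mitochondrial transcripts were kept, 4242 for the isotype and 5961 for the Skint1 antibody. Of these, 3195 and 4231 met the rule for dendritic epidermal T cells (DETCs), which was at least 1 unique molecular identifier (UMI, 1 counted transcript molecule) of the delta chain segment Trdv4, at least 3 of the CD3 chains and none of Trac. The αβ T cells, with Trac and no Trdv4, numbered 197 and 213. The class called innate lymphoid cells (ILCs), with at least 2 UMIs of Rora and Gata3, at most 2 of CD3, and no Trdv4 or Trac, held 58 and 101. The median cell held 4076 and 3605 UMIs among DETCs, 3766 and 3581 among αβ T cells and 4726 and 4608 among ILCs. A share of 18.7% and 23.8% of kept cells met none of these rules. The libraries had 5 kept barcodes in common, 3 of them DETCs in both. Values are given first for the isotype and then for the Skint1 antibody library, as counts per 1000000 UMIs of the class (CPM) with exact 95% Poisson intervals in brackets. With 1 library per treatment there was no replicate and no test. The intervals cover counting error only, and treatment cannot be told apart from library.

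Most of these chains work in combinations. Il2rg encodes the common gamma chain, which pairs with Il7r, Il4ra, Il9r or the IL-2/IL-15 receptor beta chain Il2rb and signals through JAK1, JAK3 and STAT proteins. Il2ra and Il15ra add high affinity for IL-2 and IL-15, Il18r1 binds IL-18 together with Il18rap, Il1rl1 is the IL-33 receptor, and Il23r pairs with Il12rb1. In skin, IL-15 and IL-7 from epithelial cells are known to support resident lymphocytes, and Il1rl1 is a familiar marker of type 2 innate lymphocytes and of tissue regulatory T cells.

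Markers of the classes were read before the receptors. Summed over Trdc, Tcrg-C1, Tcrg-V5, Fcer1g and Cd7, DETC markers stood at 10937 and 10811 CPM in DETCs, at 1099 and 1748 CPM in αβ T cells and at 108 and 118 CPM in ILCs. The 7 type 2 ILC markers summed to 569 and 961 CPM in the ILC class and to 822 and 792 CPM in DETCs, so this list did not set the class apart. Of its genes, Il5 stood at 25.2 and 32.1 CPM in ILCs against 0.0743 and 0.124 CPM in DETCs and Lmo4 at 202 and 195 CPM against 13.8 and 15.3 CPM, Il13 and Areg were also abundant in DETCs, and Klrg1 and Arg1 were at 0 in ILCs. The 4 type 3 markers summed to 302 and 317 CPM in ILCs, most of it Ccr6 at 227 and 271 CPM, against 52.0 and 49.3 CPM in DETCs and 322 and 390 CPM in αβ T cells. Its 7 natural killer markers summed to 0 and 4.01 CPM. Trbc1, a T cell receptor constant segment, was at 1184 and 1044 CPM there, against 1115 and 935 CPM in αβ T cells. It is on a list of 7 αβ T cell markers, which summed to 1932 and 1726 CPM in ILCs. The list summed to 2765 and 2414 CPM in αβ T cells and to 2620 and 2229 CPM in DETCs, so it did not set αβ T cells apart from DETCs. Of its genes, Cd8a and Cd8b1 were at 0 in ILCs of both libraries, and Cd5 in those of the Skint1 antibody library. The rule does not tell innate cells from T cells with few CD3 UMIs, so every ILC value below is that of cells meeting the rule and may include such T cells, whose part was not tested. Among its barcodes 1 of 58 and 10 of 101 carried 10 or more UMIs of 5 keratins, a keratinocyte signal that summed to 662 and 5298 CPM over the class and to 18.4 and 33.9 CPM without them. These barcodes held 1 UMI of Il15ra, 1 of Il4ra and none of the other receptors, and some ILC values are also given without them below.

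Among the receptor genes at 50 CPM or more, Il7r and Il18r1 differed most between DETCs and the other classes. Transcripts of Il7r, the IL-7 receptor alpha chain, were at 12.5 CPM [10.7, 14.5] and 10.3 CPM [8.76, 11.9] in DETCs, at 397 [355, 443] and 479 [434, 529] in αβ T cells and at 623 [533, 723] and 602 [536, 674] in ILCs. DETCs lay lowest and ILCs highest in both libraries, with no overlap of intervals between classes within a library. The ILC level was 49.9-fold and 58.7-fold that of DETCs, a log2 ratio of 5.64 [5.32, 5.95] and 5.87 [5.6, 6.16]. Between ILCs and αβ T cells the log2 ratio was 0.65 [0.37, 0.92] and 0.33 [0.11, 0.55], and it turned to −1.43 and −1.78 when barcodes above 2500 genes, many of them rich in keratins, were kept. In the 17 and 42 ILCs without any CD3 chain or Trdc UMI, the Il7r log2 ratio was 5.71 and 5.55 to DETCs and 0.71 and 0.01 to αβ T cells. Il18r1, the ligand-binding chain of the IL-18 receptor, ran in the same order, at 5.95 and 4.2 CPM in DETCs, 146 and 152 CPM in αβ T cells and 284 and 211 CPM in ILCs. Its ILC over αβ T cell log2 ratio, 0.96 and 0.47, likewise turned, to −1.06 and −1.64, with the barcodes above 2500 genes kept. Il18r1 was 47.8-fold and 50.1-fold more in ILCs than in DETCs, and 24.6-fold and 36.1-fold more in αβ T cells than in DETCs.

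**Figure D1:**
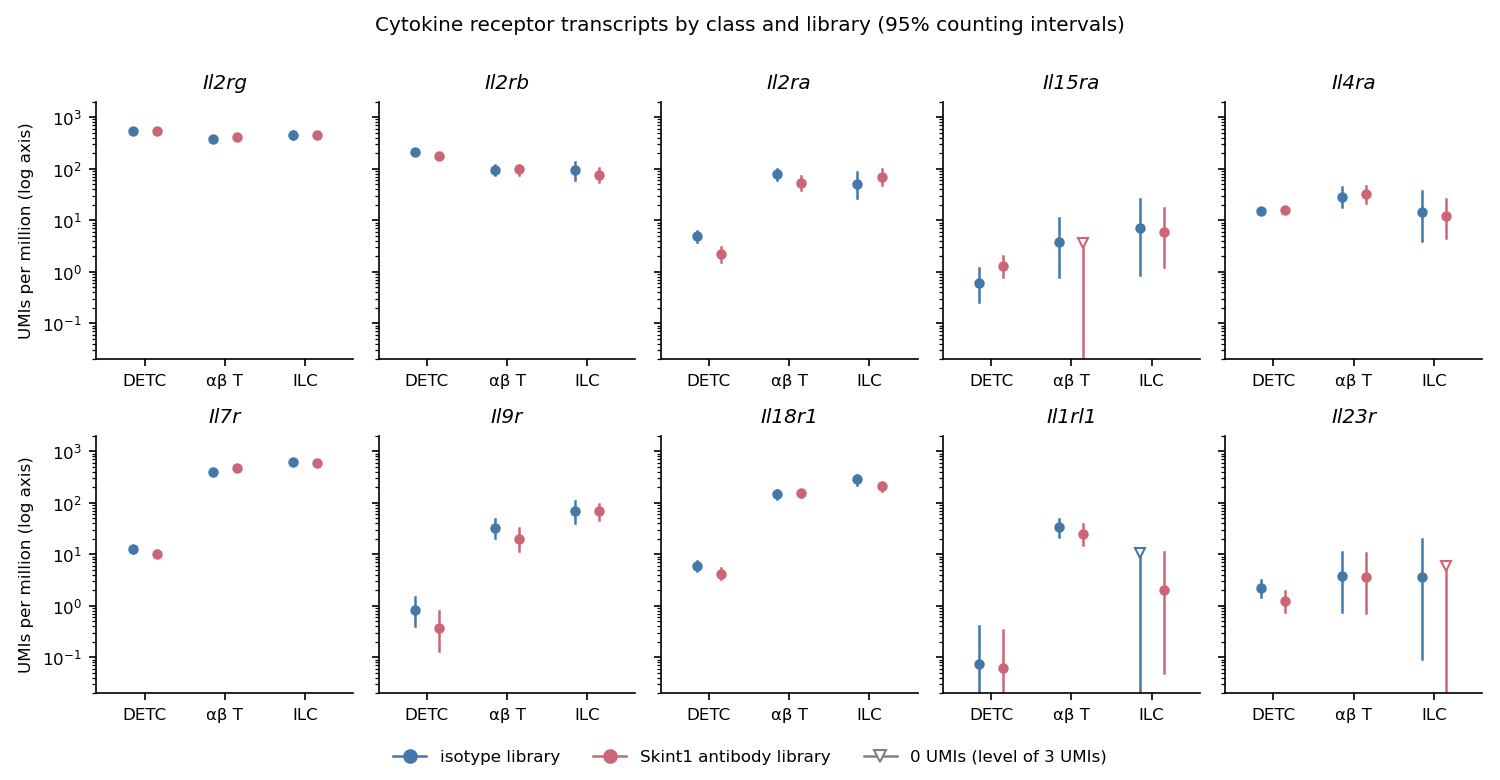
Level of each receptor gene, in CPM on a log axis, in DETCs, αβ T cells and ILCs of the isotype and the Skint1 antibody library, with exact 95% Poisson intervals. Il7r lies at 12.5 and 10.3 in DETCs and at 623 and 602 in ILCs, while Il2rg stays between 380 and 544 in every class.

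Il9r, the IL-9 receptor chain, was sparser and was nearly absent from DETCs. Its 11 and 6 UMIs in all DETCs gave 0.818 and 0.371 CPM, against 32.5 and 20.3 CPM in αβ T cells and 68.4 and 68.2 CPM in ILCs. The log2 ratio of ILCs to DETCs was 6.39 [5.24, 7.6] and 7.52 [6.25, 9.07], and that of ILCs to αβ T cells 1.07 [0.14, 1.98] and 1.75 [0.87, 2.68]. The latter pair turned to −1.23 and −0.42 with barcodes above 2500 genes kept. Il2ra, the high-affinity alpha chain for IL-2 (CD25), was at 4.91 and 2.23 CPM in DETCs, 77.4 and 52.6 CPM in αβ T cells and 50.4 and 70.2 CPM in ILCs. It was thus 10.3-fold and 31.6-fold higher in ILCs than in DETCs, whereas ILCs and αβ T cells had overlapping intervals and the order of those classes differed between the libraries.

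Il2rb and Il2rg, the signalling chains for IL-2 and IL-15, ran the other way or differed little. Il2rb, which transmits IL-2 and IL-15 signals, was at 215 CPM [207, 223] and 178 CPM [171, 185] in DETCs, at 94.9 [74.8, 119] and 96.8 [76.9, 120] in αβ T cells and at 93.6 [61.1, 137] and 76.3 [54.0, 105] in ILCs. DETCs were highest in both libraries and the other classes overlapped. The log2 ratio of ILCs to DETCs was −1.2 [−1.82, −0.65] and −1.22 [−1.72, −0.76]. Without the keratin-rich barcodes it was −1.17 and −0.95, which is short of 2-fold in the Skint1 antibody library. For αβ T cells over DETCs it was −1.18 [−1.53, −0.85] and −0.88 [−1.21, −0.56]. Il2rg, the shared gamma chain, was at 537 and 544 CPM in DETCs, 380 and 406 CPM in αβ T cells and 446 and 458 CPM in ILCs, so that αβ T cells lay lowest and DETCs highest in both libraries. Its log2 ratio of ILCs to DETCs was −0.27 [−0.54, −0.01] and −0.25 [−0.44, −0.06] and turned to 0.02 in the Skint1 antibody library without the keratin-rich barcodes.

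The remaining genes were sparse. Il4ra, the IL-4 and IL-13 receptor chain, was at 15.2 and 15.4 CPM in DETCs, at 28.7 and 32.3 CPM in αβ T cells and from 4 and 6 UMIs in ILCs, with ILC over DETC log2 ratios of −0.08 [−1.97, 1.3] and −0.35 [−1.81, 0.79]. αβ T cells exceeded DETCs by a log2 ratio of 0.91 [0.22, 1.54] and 1.07 [0.44, 1.64], although in the isotype library the ratio was −0.05, and in the Skint1 antibody library 0.34, without the 10 cells of each class that held most of its UMIs. Il1rl1 had 27 and 21 UMIs in αβ T cells, or 33.7 and 25.1 CPM, 1 UMI in all DETCs of each library, and 0 and 1 UMI in ILCs. The αβ T cell level was thus above that of ILCs, by at least 3.12-fold with the isotype. With the Skint1 antibody the log2 ratio of ILCs to αβ T cells was −3.64 [−9.01, −1.01], from 1 ILC UMI. Il15ra had 8 and 21 UMIs in DETCs (0.595 and 1.3 CPM), 3 and 0 in αβ T cells and 2 and 3 in ILCs. Il23r had 30 and 20 UMIs in DETCs (2.23 and 1.24 CPM), 3 in αβ T cells of each library, and 1 and 0 in ILCs, so the classes could not be ordered firmly for either gene at this depth. The log2 ratio of Il15ra in ILCs over DETCs was 3.6 [0.32, 5.92] and 2.21 [−0.18, 3.96].

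To set these ratios against the transcriptome, genes at a mean of 50 CPM or more over the classes compared were counted where they differed at least 2-fold in the same direction in both libraries. From DETCs to ILCs, 5.5% of 2746 such genes were higher and 11.7% lower. Of the 4 receptor genes at that level, 2 were higher (Il7r and Il18r1), 1 was lower (Il2rb) and Il2rg was neither. From DETCs to αβ T cells, 4.36% of 2731 genes were higher and 8.42% lower. Il7r and Il18r1 were again the higher 2 of 4 receptor genes and none was lower. Between αβ T cells and ILCs, 1.41% of 2559 genes were higher in ILCs and 2.54% lower, and 0 of 5 receptor genes passed in either direction. The median gene was at a log2 ratio of −0.07 and −0.14 for ILCs over DETCs and of −0.12 and −0.14 for αβ T cells over DETCs. Irrespective of level, a ratio could be computed in both libraries for 9681 genes of ILCs and DETCs, of which 8.22% were higher and 9.97% lower in ILCs, and for 10960 genes of αβ T cells and DETCs, of which 7.49% were higher and 8.97% lower in αβ T cells. On that footing 5 of the 8 receptor genes with a ratio were higher in ILCs than in DETCs (Il2ra, Il7r, Il15ra, Il9r and Il18r1, with Il15ra resting on 2 and 3 UMIs) and 5 of 9 in αβ T cells (Il2ra, Il7r, Il9r, Il18r1 and Il1rl1).

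**Figure D2:**
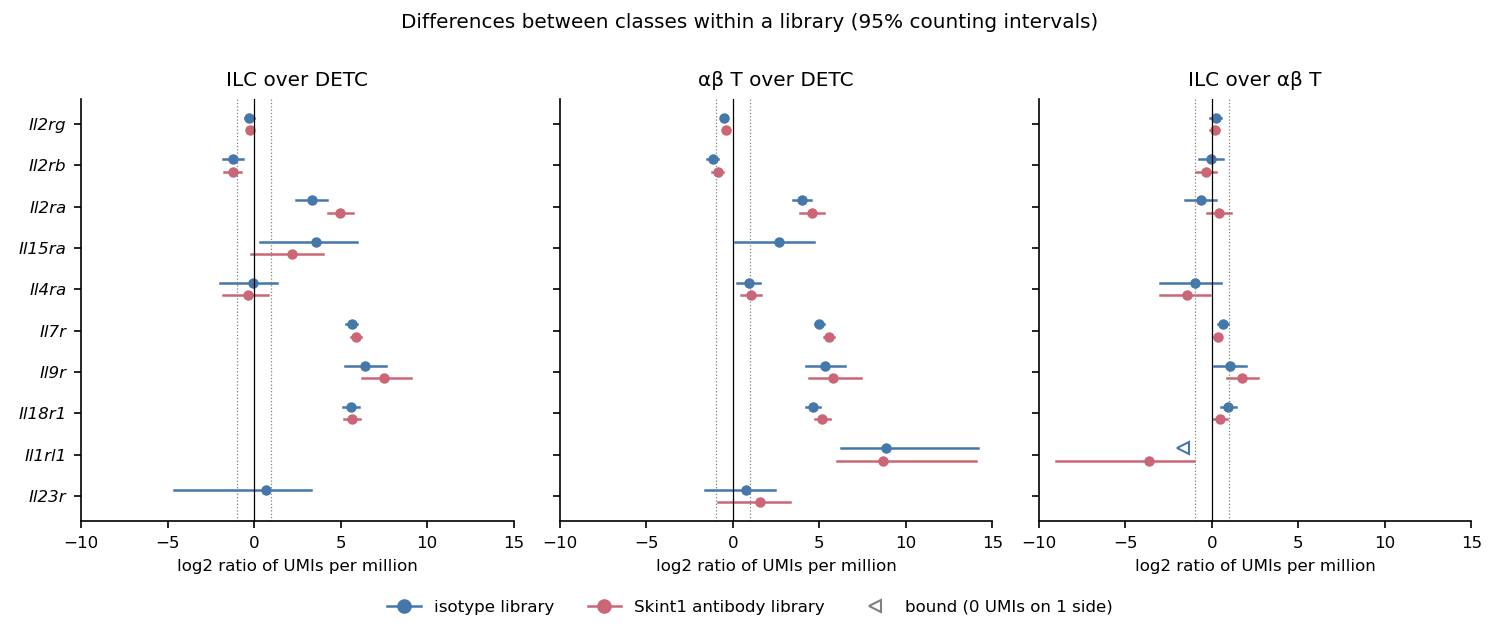
Log2 ratio of the level of each receptor gene between classes within each library, with exact 95% intervals, where dotted lines mark 2-fold and an open triangle a bound from 0 UMIs. Il7r, Il18r1, Il9r and Il2ra lie right of the 2-fold line against DETCs in both libraries, and Il2rb lies left of zero.

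Il1rl1 and Il18r1 are neighbours on chromosome 1 and are read in the same direction, but their levels parted in ILCs. In GRCm38, Il1rl1 spans chr1:40429570-40465415 and Il18r1 chr1:40465552-40500854, both on the plus strand, so that 136 bases lie between them. These bases, and the 250 bases upstream of Il1rl1 and of Il9r (chr11:32187541-32200279, minus strand), are shown from RefSeq's promoter windows of the same build. They were chosen for the contrast between these neighbours and for the near absence of Il9r from DETCs. RefSeq's windows numbered 3 for Il18r1, 2 for Il1rl1 and 1 for Il9r, and the first listed of each gene was read. For Il7r, whose contrasts were as large as those of Il18r1, no window is printed because the RefSeq and GENCODE gene starts differ. Capitals mark matches to AGATAA or TGATAA, core letters bound by GATA factors, and to TGTGGT, core letters bound by RUNX factors. AGGTCA, the letters of a ROR element, was also searched, and all 4 were searched on both strands.
Il1rl1, chr1:40429320-40429569, plus strand: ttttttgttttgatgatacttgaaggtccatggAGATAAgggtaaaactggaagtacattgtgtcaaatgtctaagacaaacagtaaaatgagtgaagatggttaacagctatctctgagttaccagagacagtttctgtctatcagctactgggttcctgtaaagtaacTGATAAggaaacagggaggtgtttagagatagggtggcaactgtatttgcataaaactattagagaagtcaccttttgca
Il18r1, chr1:40465416-40465551, plus strand: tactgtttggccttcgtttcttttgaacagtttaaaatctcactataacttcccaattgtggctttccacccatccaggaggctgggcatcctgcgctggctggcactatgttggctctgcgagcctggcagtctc
Il9r, chr11:32200280-32200529, minus strand: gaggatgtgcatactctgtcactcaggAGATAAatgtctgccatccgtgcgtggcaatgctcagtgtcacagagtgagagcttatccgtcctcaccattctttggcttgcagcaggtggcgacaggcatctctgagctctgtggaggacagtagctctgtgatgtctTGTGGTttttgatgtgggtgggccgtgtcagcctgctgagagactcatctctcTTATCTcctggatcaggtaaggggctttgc
The Il1rl1 window held AGATAA 217 bases and TGATAA 80 bases before the gene start. The Il9r window held AGATAA on either strand, 223 and 30 bases before the start, and TGTGGT 83 bases before it. None of the 4 motifs occurred in the bases between Il1rl1 and Il18r1, and the further windows of Il1rl1 and Il18r1 were not read. Over 32851 promoters, 16.6% of windows of 250 bases and 8.74% of windows of 136 bases held AGATAA or TGATAA, and 14.0% and 7.62% held TGTGGT. Il2ra (chr2:11642807-11693193) and Il15ra (chr2:11705290-11734317) are also neighbours, both on the plus strand. Il15ra stayed at 0.595 and 1.3 CPM in DETCs, where Il2ra was at 4.91 and 2.23 CPM. The genes of the other chains lie apart from each other, Il4ra at chr7:125552120-125579474 on the plus strand and, on the minus strand, Il23r at chr6:67422932-67491855, Il7r at chr15:9505788-9530176, Il2rb at chr15:78479256-78495271 and Il2rg at chrX:101264378-101268255.

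DETCs carried Il7r and Il18r1 in very few cells. Il7r was detected in 49 and 45 DETCs, 1.53% and 1.06%, against 53.3% and 51.6% of αβ T cells and 81.0% and 80.2% of ILCs. With every cell thinned to 1000 UMIs, which left out 4 and 14 DETCs and 1 αβ T cell per library, these shares were 0.909% and 0.451%, 29.1% and 29.2%, and 43.1% and 40.6%. Il2rg was found in 41.4% and 40.9% of thinned DETCs and in 31.0% and 33.7% of thinned ILCs (85.6%, 82.7%, 79.3% and 74.3% before thinning). Il2rb was found in 18.7% and 15.7% of thinned DETCs and in 7.14% and 9.43% of thinned αβ T cells. In thinned ILCs it was found in 17.2% [8.59, 29.4] and 7.92%, so the isotype ILC share was not distinguishable from that of DETCs. A separate draw of the isotype ILCs without keratin-rich barcodes gave 12.3% [5.08, 23.7]. Each share of thinned cells comes from a single draw, and its interval leaves out the spread between draws. In barcodes rich in keratins, where lymphocyte receptors should be absent, thinning left 0 of 57 and 0 of 116 with Il7r, Il2rb or Il2rg; their median depth before thinning was 18511 and 16622 UMIs. These zeros allow shares of up to 6.27% and 3.13%, above the Il7r shares of DETCs, so they set no useful background for Il7r there. Before thinning these barcodes held 2 and 9 Il7r UMIs, or 1.69 CPM [0.204, 6.1] and 3.99 CPM [1.82, 7.57], and lay below DETCs by a log2 ratio of −2.89 [−5.94, −1.01] and −1.36 [−2.52, −0.4]. If all keratin in DETCs were free RNA of the composition of near-empty barcodes, that RNA would make up 1.8% and 2.46% of a DETC. It would bring Il7r to 0.651 and 0.907 CPM, below the class means of 12.5 and 10.3 CPM. Those means rest mostly on 35 and 31 cells, which held 154 of the 168 and 152 of the 166 Il7r UMIs. Whether Il7r exceeded free RNA in the remaining DETCs was not tested.

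In DETCs, 35 of 3195 and 31 of 4231 cells with 2 or more Il7r UMIs held 91.7% and 91.6% of the Il7r UMIs of the class. The same cells held 70.0% and 58.8% of its Il18r1 UMIs and 19.7% and 22.2% of its Il2ra UMIs, but 1.0% and 0.695% of its Il2rb UMIs. Since Il7r chose these cells, its own level in them is no result. Il18r1 was at 268 and 232 CPM there and at 1.21 and 1.69 CPM in the 3146 and 4186 DETCs without an Il7r UMI, a log2 ratio of 7.78 [6.96, 8.69] and 7.1 [6.36, 7.86]. An Il18r1 UMI was present in 71.4% and 74.2% of the former and in 0.477% and 0.478% of the latter. Il2ra was at 62.1 and 46.5 CPM against 3.8 and 1.51 CPM. Il2rb was lower, at 139 and 116 CPM against 217 and 178 CPM, and Il2rg was at 473 and 488 CPM against 539 and 545 CPM.

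These Il7r-bearing cells also differed in genes outside the receptors. The cytokine gene Il17a was at 306 and 430 CPM against 1.44 and 0.69 CPM, the chemokine receptor Ccr6 at 206 and 134 CPM against 0.607 and 0.314 CPM, and Rora, a nuclear receptor of lymphocytes that make IL-17, at 392 and 366 CPM against 11.5 and 10.7 CPM. The 7 markers of dermal γδ T cells that make IL-17 summed to 1009 and 1139 CPM against 48.4 and 58.8 CPM. The 5 DETC markers summed to 2801 and 3241 CPM against 11082 and 10913 CPM, and Trdc was detected in 68.6% and 77.4% of these cells against 99.9% of the others in each library. Exactly 1 Trdv4 UMI was present in 48.6% and 58.1% of them, against 13.4% and 21.0% of the others. Their median depth was 5841 and 6196 UMIs against 4066 and 3596, and 20.0% and 41.9% of them, against 3.27% and 4.11%, were among the barcodes with the highest doublet scores. The part of doublets or of stray Trdv4 molecules in this set was not tested. In DETCs without an Il7r UMI, Il9r had 1 and 2 UMIs, or 0.0759 and 0.125 CPM, where the same bound on free RNA gave 0.0455 and 0.15 CPM.

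**Figure D3:**
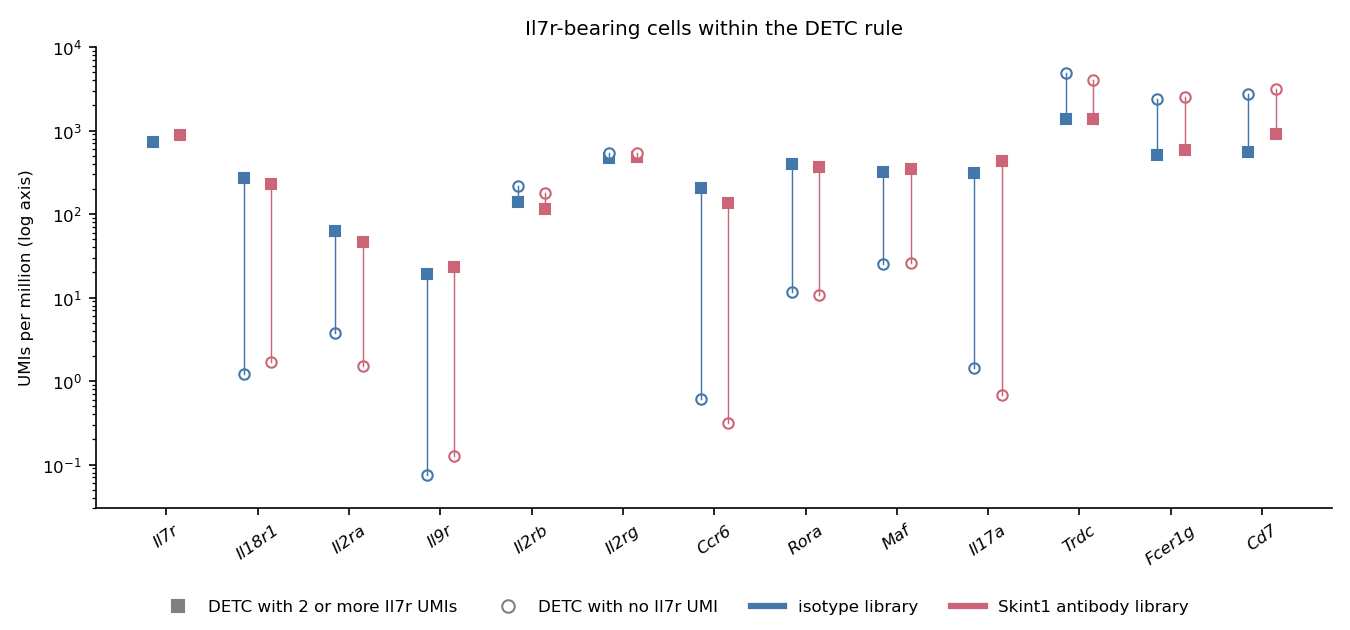
Level, in CPM on a log axis, of receptor and marker genes in DETCs with 2 or more Il7r UMIs (squares, 35 and 31 cells) and in DETCs with no Il7r UMI (circles), joined by a line for each library. Il18r1 lies at 268 and 232 against 1.21 and 1.69, while Trdc, Fcer1g and Cd7 lie lower in the Il7r-bearing cells.

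Pairs of chains were counted in thinned cells beside the product of their single shares. Il2rb and Il2rg occurred together in 7.77% and 6.38% of DETCs, where the products were 7.76% and 6.43%. Il7r and Il18r1 occurred together in 9 and 4 DETCs, or 0.282% and 0.0949%, where the products were 0.00342% and 0.00118%. In αβ T cells Il18r1 and its partner Il18rap occurred together in 5 and 7 cells, or 2.55% [0.833, 5.85] and 3.3% [1.34, 6.68]. The products were 0.859% and 1.29%, and the isotype interval includes its product. These counts come from a single thinning draw per library, and the spread between draws was not tested. In ILCs Il7r and Il2rg occurred together in 8.62% and 14.9%, where the products were 13.4% and 13.7%.

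Within αβ T cells, the levels of Il2ra and Il1rl1 were highest in cells with Foxp3, the regulatory T cell factor. There were 17 and 12 such regulatory-like cells, with Ctla4 at 810 and 366 CPM, beside 44 and 44 CD4-like, 25 and 17 CD8-like and 111 and 140 other αβ T cells without Foxp3 that had UMIs of neither or of both coreceptors. Il2ra was at 412 CPM [274, 596] and 225 CPM [97.1, 443] in regulatory-like cells and at 18.8 and 28.0 CPM in CD4-like cells, a log2 ratio of 4.45 [2.76, 6.81] and 3.01 [1.21, 4.96]. It was at 51.8 CPM [33.2, 77.1] and 47.1 CPM [30.8, 69.0] in the other αβ T cells, and regulatory-like cells held 28 of the 62 and 8 of the 44 Il2ra UMIs of αβ T cells. Il1rl1 was at 295 CPM [180, 455] and 309 CPM [154, 553] against 25.1 and 28.0 CPM, a log2 ratio of 3.55 [1.97, 5.56] and 3.47 [1.82, 5.34]. These 17 and 12 cells held 20 of the 27 and 11 of the 21 Il1rl1 UMIs of αβ T cells, and 14 and 10 αβ T cells held them all. Il1rl1 had 0 UMIs in CD8-like cells of both libraries. Il7r was at 346 and 381 CPM in CD4-like cells, at 208 and 128 CPM in CD8-like cells, at 309 and 647 CPM in regulatory-like cells and at 473 and 545 CPM in the other αβ T cells. Regulatory-like over CD4-like cells gave a log2 ratio of −0.16 [−0.96, 0.59] and 0.76 [0.01, 1.47], so their place in the order differed between the libraries. CD8-like cells lay below CD4-like cells by a log2 ratio of −0.73 [−1.5, −0.01] and −1.57 [−2.76, −0.56]. Il18r1 gave opposite orders in the libraries, with CD4-like cells at 81.7 and 241 CPM and the other αβ T cells at 186 and 125 CPM.

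**Figure D4:**
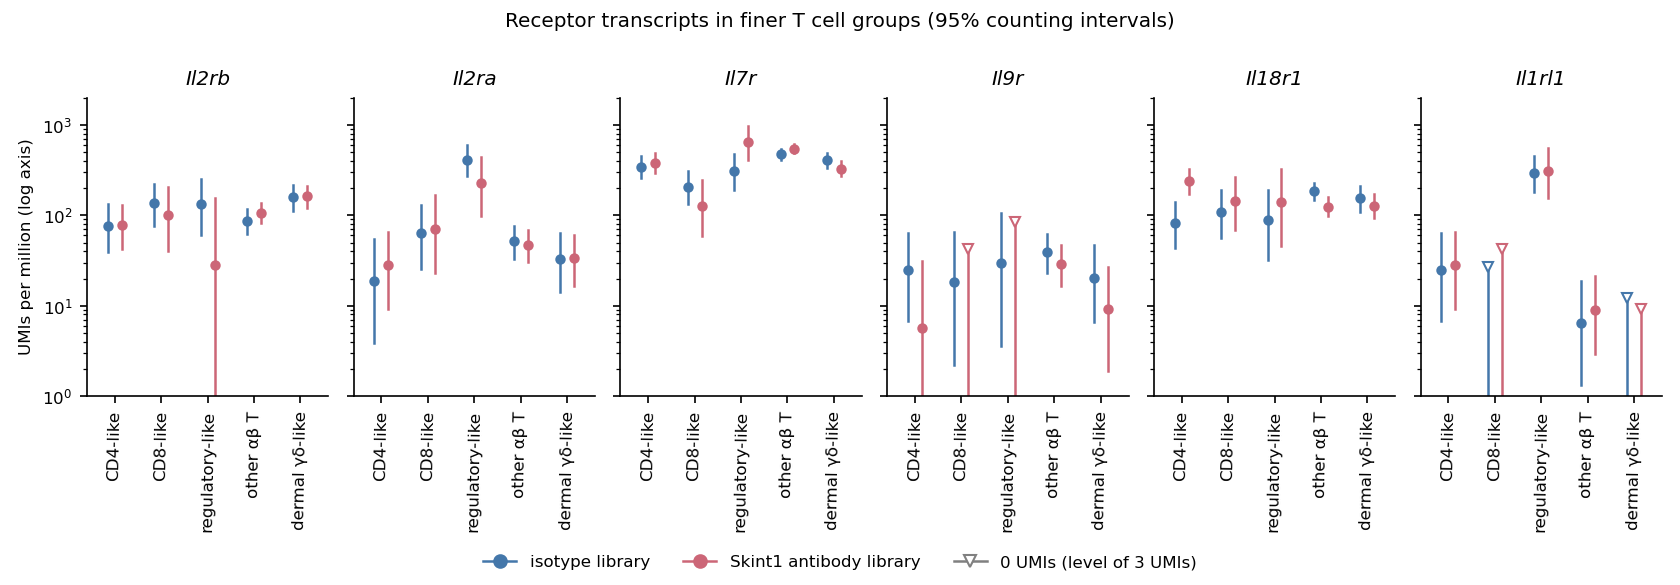
Level of 6 receptor genes, in CPM on a log axis, in CD4-like, CD8-like, regulatory-like, other αβ T and dermal γδ-like cells of each library, with exact 95% Poisson intervals and open triangles for 0 UMIs. Il2ra at 412 and 225 and Il1rl1 at 295 and 309 stand out in the regulatory-like cells.

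The cells outside the 3 classes held 49.4% and 48.8% of all Il7r UMIs of kept cells, although they were 18.7% and 23.8% of the cells. DETCs held 81.6% and 73.4% of the Il2rb UMIs, not far from their 75.3% and 71.0% of the cells. Cells with CD3 chains but no Trdc, 112 and 150 in number, had Il7r at 709 and 732 CPM, Il18r1 at 210 and 239 CPM, Il9r at 59.6 and 70.3 CPM and Il2ra at 74.0 and 91.5 CPM. Cells with CD3 chains and Trdc, 567 and 1107 in number, had Il7r at 22.9 and 11.0 CPM and Il2rb at 198 and 196 CPM, nearer to DETCs. Dermal γδ-like cells numbered 52 and 74, with Trdc and at least 2 UMIs of the 7 markers named above. They had Il7r at 407 and 329 CPM, Il18r1 at 155 and 128 CPM and Il2rb at 159 and 162 CPM. The 5 DETC markers summed to 4072 and 5393 CPM in them, and the part of DETCs without a Trdv4 UMI was not tested. In the keratin-rich barcodes of any size, Il15ra was at 16.0 CPM [9.66, 25.0] and 13.3 CPM [8.97, 19.0], from 19 and 30 UMIs. That exceeded DETCs by a log2 ratio of 4.75 [3.49, 6.15] and 3.36 [2.5, 4.23], whereas Il2rb was at 0 and 1.33 CPM there.

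Between treatments, no receptor gene at 50 CPM or more differed 1.5-fold in any class. In DETCs 0.0699% of 2861 genes were at least 1.5-fold higher and 0.35% lower in the Skint1 antibody library, in αβ T cells 1.82% and 3.17% of 2584, and in ILCs 7.8% and 11.1% of 2538. The receptor genes at that level numbered 2 in DETCs (Il2rb and Il2rg), 5 in αβ T cells and 6 in ILCs. Il2rb in DETCs went from 215 CPM with the isotype to 178 CPM with the Skint1 antibody, which is a log2 ratio of −0.27 [−0.35, −0.2], and 2.87% of the 2861 genes lay at or below it. Depth differed in the same direction, at a median of 4076 and 3605 UMIs, and its part was not tested. Il2rb was found in 18.7% [17.4, 20.1] and 15.7% [14.6, 16.9] of DETCs after thinning to 1000 UMIs. Delta chain counts moved as well, with exactly 1 Trdv4 UMI in 13.8% and 21.4% of DETCs and a median of 18 and 13 Trdc UMIs per cell, and their part was not tested. In the cells outside the 3 classes Il2rb was at 175 and 174 CPM, a log2 ratio of −0.01 [−0.16, 0.15], and whether this differs from DETCs was not tested. Il2rg in DETCs was at a log2 ratio of 0.02 [−0.03, 0.06].

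Il2ra in DETCs was represented by 66 and 36 UMIs, or 4.91 and 2.23 CPM, a log2 ratio of −1.14 [−1.77, −0.53]. Without the 10 cells that held most Il2ra UMIs it was −1.19, and in DETCs without an Il7r UMI −1.33 [−2.1, −0.6]. After thinning to 1000 UMIs, Il2ra was found in 8 and 9 DETCs, or 0.251% [0.108, 0.493] and 0.213% [0.0976, 0.405], so the shares of cells did not show a difference at that depth. In αβ T cells the ratio for Il2ra was −0.56 [−1.15, 0.02] and in ILCs 0.48 [−0.45, 1.49]; the difference between classes was not tested. Il18r1 in DETCs was at −0.5 [−0.99, −0.02], but at −0.05 without the cells with 2 or more Il7r UMIs and at 0.48 [−0.46, 1.47], from 16 and 27 UMIs, in DETCs without an Il7r UMI. Il7r was at −0.28 [−0.6, 0.04]. In αβ T cells Il7r was at 397 and 479 CPM, a log2 ratio of 0.27 [0.06, 0.49], and the other receptor genes with a ratio there had intervals that included 0. In ILCs every interval that could be computed included 0, with Il7r at −0.05 [−0.32, 0.23] and Il18r1 at −0.43 [−0.87, 0.01]. At any level, Il15ra was past 1.5-fold higher and Il2ra, Il9r and Il23r lower in DETCs, where 6.72% of 13871 genes with a ratio were higher and 7.5% lower. Il9r was past 1.5-fold lower in αβ T cells, where 13.7% of 9742 genes were higher and 16.9% lower. All of these lay below 50 CPM, and the intervals included 0 for Il15ra [−0.11, 2.51], Il9r [−2.86, 0.42] and Il23r [−1.74, 0.01] in DETCs and for Il9r [−1.65, 0.26] in αβ T cells. In ILCs 19.4% of 8134 genes were higher and 20.4% lower and no receptor gene was, but without the keratin-rich barcodes Il2ra reached a log2 ratio of 0.72 [−0.21, 1.73].

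**Figure D5:**
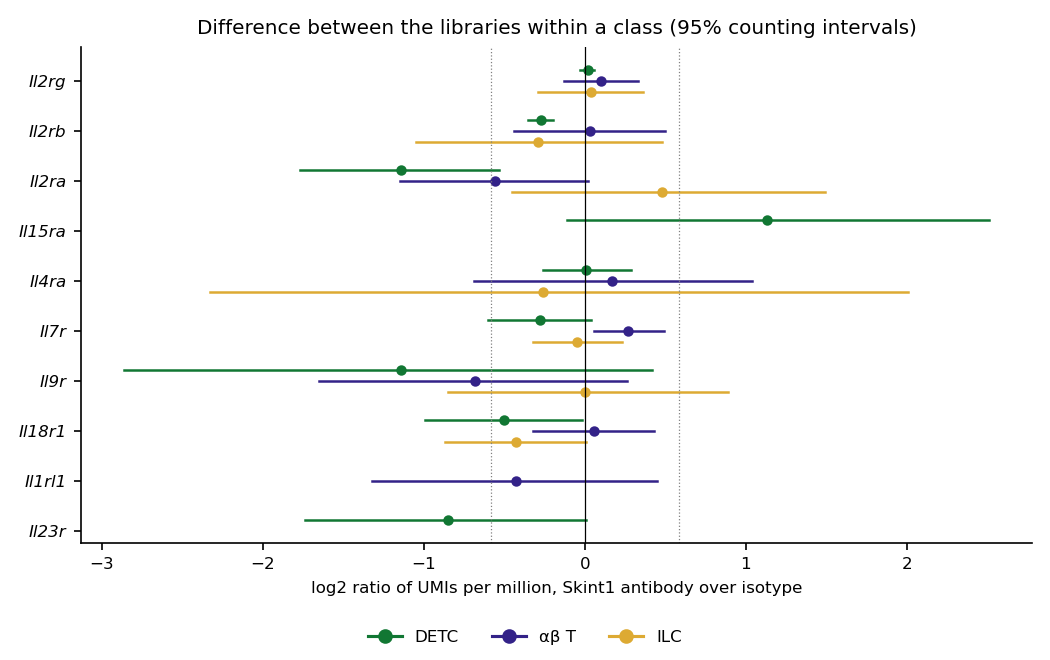
Log2 ratio of each receptor gene in the Skint1 antibody over the isotype library within DETCs, αβ T cells and ILCs, with exact 95% intervals, where dotted lines mark 1.5-fold; genes with at most 3 UMIs on both sides are not drawn. Il2rb lies at −0.27 and Il2ra at −1.14 in DETCs, and Il2rg lies near zero in all classes.

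Receptor levels varied with the state of DETCs. Tnfrsf9, the costimulatory receptor 4-1BB induced on activated T cells, was detected at 2000 UMIs per cell in 509 and 408 DETCs. In these Il2ra was at 14.3 and 5.07 CPM, against 3.05 and 1.95 CPM in DETCs without it, a log2 ratio of 2.23 [1.48, 2.97] and 1.38 [0.04, 2.55]. Il2rb was higher in the same cells by a log2 ratio of 0.28 [0.14, 0.41] and 0.28 [0.11, 0.45]. In cells with at least 2 UMIs of a list of 8 cell cycle genes at the same depth, 55 and 48 in number, Il2rg was at a log2 ratio of −0.49 [−0.77, −0.22] and −0.45 [−0.76, −0.16] to cells without any. When DETCs were divided into 3 sets of equal size by the share of immediate early transcripts such as Fos and Jun, which rise during tissue dissociation, Il4ra was at 21.3 and 22.4 CPM in the highest set and at 9.12 and 5.79 CPM in the lowest. The log2 ratio was 1.22 [0.68, 1.79] and 1.95 [1.38, 2.57], beside a median gene at −0.18 in each library. Il2rb was higher in that set by 0.26 [0.13, 0.39] and 0.42 [0.29, 0.55] on the log2 scale. Il2ra ran opposite ways in the libraries in the same split, at −1.61 [−2.64, −0.69] and 1.01 [−0.23, 2.36]. Il18r1 was lower in the highest set, at −2.02 [−3.12, −1.05] and −1.27 [−2.37, −0.27], and Il7r was at −1.54 [−2.15, −0.97] and −0.33 [−0.9, 0.24]. Most UMIs of both genes lay in the 35 and 31 Il7r-bearing DETCs, in which the immediate early list summed to 6329 and 7964 CPM, against 9103 and 9187 CPM in DETCs without an Il7r UMI, and the part of those cells was not tested. The immediate early list summed to 9047 and 9173 CPM in DETCs, 5086 and 6121 CPM in αβ T cells and 2548 and 4668 CPM in ILCs, where it was 2595 and 2950 CPM without the keratin-rich barcodes, and its part in the class ratios was not tested.

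Chains that partner with these receptors were counted over a list of 15. From DETCs to ILCs 4 were at least 2-fold higher in both libraries (Il18rap, Il21r, Il17rb and Il27ra) and 3 lower (Il12rb1, Il12rb2 and Il10ra), with a median log2 ratio of 0.49 and 0.21, beside 8.22% and 9.97% of all genes with a ratio. Il21r and Il10ra rested on 2 ILC UMIs in each library, with intervals of [−1.0, 4.16] and [−2.09, 2.99] for Il21r and of [−4.88, 0.03] and [−5.74, −0.82] for Il10ra, and Il17rb on 4 ILC UMIs in each. From DETCs to αβ T cells 5 were higher (Il18rap, Il21r, Il1r1, Il27ra and Ifngr1) and 1 lower (Il12rb2), with a median of 0.39 and 0.86, beside 7.49% and 8.97%. Of the partner chains at 50 CPM or more, 1 of 5 was higher and 1 lower for ILCs and 1 of 4 each for αβ T cells, where 5.5% and 11.7%, and 4.36% and 8.42%, of all genes at that level were. Il18rap, which completes the IL-18 receptor, was at 2.38 and 2.78 CPM in DETCs, 61.2 and 72.9 CPM in αβ T cells and 133 and 90.3 CPM in ILCs, the order of Il18r1. Il12rb2, the signalling chain of the IL-12 receptor, ran opposite, at 120 and 94.7 CPM in DETCs, 25.0 and 15.5 CPM in αβ T cells and 0 and 2.01 CPM in ILCs. Crlf2, which forms the TSLP receptor with Il7r, was at 78.1 and 60.3 CPM in DETCs and at 119 and 102 CPM in ILCs, so DETCs held this partner where Il7r was nearly absent. Ifngr1, an interferon gamma receptor chain, was highest in αβ T cells, at 177 and 153 CPM against 51.1 and 48.5 CPM in DETCs and 86.4 and 64.2 CPM in ILCs. Between αβ T cells and ILCs 0 partner chains were higher in ILCs and 4 lower (Il12rb1, Il12rb2, Il21r and Ifngr1), with a median of −0.7 and −0.49, beside 2.51% and 4.12% of 8472 genes with a ratio. Tgfbr2, a TGF-beta receptor chain, was past 2-fold in none of the class comparisons, at 106 and 101 CPM in DETCs and 93.6 and 60.2 CPM in ILCs.

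Signalling genes downstream of the common gamma chain and the IL-1 family receptors were counted over a list of 13. From DETCs to ILCs 1 was higher (Stat5a) and 4 lower (Jak1, Stat5b, Socs3 and Bcl2), with a median log2 ratio of −0.04 and 0.03, beside 8.22% and 9.97% of all genes with a ratio. Without the keratin-rich barcodes Stat5b was no longer past 2-fold. From DETCs to αβ T cells 2 were higher (Socs2 and Pim1) and 3 lower (Jak1, Socs3 and Bcl2), with a median of 0.42 and 0.03, beside 7.49% and 8.97%. Of the 7 at 50 CPM or more, 3 were lower in each comparison, with 0 higher in ILCs and 1 higher in αβ T cells, where 5.5% higher and 11.7% lower, and 4.36% higher and 8.42% lower, was the share of all genes at that level. Jak1, the kinase bound by Il2rb, Il7r and Il4ra, was at 560 and 550 CPM in DETCs, 254 and 238 CPM in αβ T cells and 223 and 163 CPM in ILCs. Bcl2, a survival gene, was at 223 and 206 CPM, 59.9 and 70.5 CPM, and 39.6 and 36.1 CPM in the same order, so both were highest in DETCs, where Il2rb was highest too. The feedback inhibitor gene Cish was at 76.5 and 73.9 CPM in DETCs, 141 and 151 CPM in αβ T cells and 130 and 147 CPM in ILCs. Socs1, another inhibitor, was at 167 and 182 CPM, 129 and 137 CPM, and 90.0 and 106 CPM, and Stat3 between 74.6 and 83.7 CPM in every class. Between αβ T cells and ILCs 0 of 13 passed in either direction, with a median of −0.52 and −0.1, and 1 of 13, Socs3, was lower in ILCs without the keratin-rich barcodes.

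Of 12 ligand genes, 1 was higher in ILCs than in DETCs (Il15, from 5 and 1 UMIs) and 0 passed in any other class comparison or direction, beside 8.22% of genes with a ratio higher in ILCs. Few ligands had a ratio. For ILCs over DETCs the median log2 ratio was −0.14 over 3 genes and 3.2 over 8 genes, and −0.12 and 1.17 without the keratin-rich barcodes, which held all ILC UMIs of Il33, Tslp and Il1a. For αβ T cells over DETCs it was 1.49 over 5 genes and −0.28 over 4. For ILCs over αβ T cells it was 0.89 and 1.26. Il2 and Il13 were the ligand genes at 50 CPM or more. Il2 was at 65.1 and 58.9 CPM in DETCs, 72.4 and 41.8 CPM in αβ T cells and 54.0 and 50.2 CPM in ILCs. Il13 was at 195 and 206 CPM in DETCs, 94.9 and 160 CPM in αβ T cells and 176 and 383 CPM in ILCs.

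Across 11 points, being DETC, CD4-like, CD8-like, regulatory-like, ILC and dermal γδ-like cells of each library with at least 15 cells, 4867 genes were ranked by the Pearson correlation of their log2 levels with each receptor gene. Points of 1 library share its depth and free RNA, and the correlations are a description. Regulatory-like cells gave 1 point, from the 17 cells of the isotype library, since the 12 of the Skint1 antibody library were too few. Il1rl1 was far higher in that point than in the others. The weight of that point in the correlations was not tested. Il7r was most like Pxdc1 (0.98), Tnfrsf25 (0.98) and Ccr6 (0.96). Il18r1 was most like its own partner Il18rap (0.97), Crmp1 (0.97) and Il7r (0.95). Il1rl1 was nearest to Ankrd55 (0.99), Cmtm7 (0.98) and Cnih4 (0.97), and Il4ra to Ctla4 (0.95), Il1rl1 (0.94) and D16Ertd472e (0.93). Il2ra was nearest to Nt5e (0.92), Cdk17 (0.9) and Mif4gd (0.89). Il2rb was nearest to Mpp6 (0.97), Matk (0.97) and Mta3 (0.96), and Il2rg to Pcbp1 (0.91), Nolc1 (0.9) and Srsf5 (0.86). Without the keratin-rich barcodes all 3 genes nearest to Il2rg changed, to Tcf25, Dph5 and Sdf2l1, and for Il2rb 2510009E07Rik and Dbi took the place of Mpp6 and Mta3. For Il9r the nearest were Pura, Elk3 and Fnbp1, each at 0.94. The sparse Il15ra was nearest to Caly (0.92), Slfn5 (0.86) and Gatad2b (0.85), and Il23r to Rbm5 (0.89), Nptn (0.88) and Pcbd2 (0.87). Without the keratin-rich barcodes Rab2a and Eif3j2 took the place of Rbm5 and Pcbd2 for Il23r, Rplp0 that of Il7r for Il18r1, and Pmaip1 that of D16Ertd472e for Il4ra.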

How the data were processed

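The deposited values were raw UMI counts per gene and barcode, which the authors made with Cell Ranger on mm10 (GRCm38) from Chromium 3′ libraries, with all barcodes and no normalization; each file held 27272211 and 32450957 UMIs for the isotype and the Skint1 antibody library. Counts were summed per class and library, scaled to UMIs per 1000000 (CPM) and compared as log2 ratios with exact conditional binomial intervals; shares have Clopper-Pearson intervals, at a confidence level of 95%. A gene with 0 UMIs on one side was set to a floor of 3 UMIs, and no ratio was given where both sides had 3 or fewer. No test was possible with 1 library per treatment. Doublets were not removed, since Scrublet (scanpy 1.11.5) marked 1 and 0 barcodes by its own threshold; the 177 and 330 highest scores, 0.8% per 1000 barcodes, were set aside only as an alternative. Correlations used log2(CPM + 5). Thinning drew UMIs without replacement with a fixed seed. Python 3.11.15, numpy 2.4.6, scipy 1.17.1, R 4.3.3 and edgeR 4.0.16 (TMM factors, an alternative) were used, and the code was tested on simulated data. The receptor genes and all gene lists were chosen with earlier results of these data known. Named are the 10 receptor genes, listed partner, ligand and signalling genes at 50 CPM or more in a class of both libraries or past 2-fold between classes, class markers, and the 3 genes most like each receptor gene; genes shown in Il7r-bearing DETCs were chosen after their values were seen. Promoter windows and gene starts come from RefSeq and GENCODE, with 9 of 10 receptor genes in the promoter table.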

Additional observations from a re-analysis of the deposited data

Results flagged for a closer look

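Il18r1 differed in opposite directions between subsets of αβ T cells in the libraries. The other αβ T cells over CD4-like cells gave a log2 ratio of 1.19 [0.34, 2.15] in the isotype library (86 and 13 UMIs) and of −0.95 [−1.52, −0.36] in the Skint1 antibody library (69 and 43 UMIs). The difference between the libraries was not tested, and each rests on 44 CD4-like cells.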

How the results depend on the processing

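Without an upper limit on genes, 47 of 108 and 98 of 190 ILC barcodes were keratin-rich. Il9r in ILCs over αβ T cells then turned to −1.23 and −0.42, the receptor genes past 2-fold were 1 higher and 2 lower for ILCs over DETCs and 4 lower for ILCs over αβ T cells, and 1 was lower between treatments in ILCs. With at most 5% mitochondrial UMIs, which left 12 and 15 ILCs, 0 were lower for ILCs over DETCs, 1 was lower for αβ T cells over DETCs, and between treatments 1 was higher in αβ T cells and 3 lower in ILCs. For ILCs over DETCs, 0 were lower with a stricter ILC rule (17 and 42 cells), with every cell weighted equally, or without keratin-rich barcodes. The stricter ILC rule also gave 2 lower in ILCs between treatments, the stricter αβ T rule 1 higher in αβ T cells, TMM factors 1 higher in ILCs, and the omission of the 10 cells richest in a gene 1 lower for αβ T cells over DETCs. ILCs over αβ T cells had 1 higher with equal weights, without keratin-rich barcodes, or at a floor of 20 CPM or none, and without keratin-rich barcodes 1 was higher in ILCs between treatments. The cause was not tested.

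At a floor of 20 CPM, 4 receptor genes were higher for ILCs over DETCs and 1 was lower between treatments in αβ T cells; the shares of all genes became 0.109% higher in DETCs, 4.66% higher and 8.42% lower in αβ T cells and 18.1% lower in ILCs. Without a floor, 5 were higher for ILCs and 5 for αβ T cells over DETCs, 1 was lower for ILCs over αβ T cells, and between treatments 1 was higher and 3 lower in DETCs and 1 lower in αβ T cells. The shares of all 31053 genes, most with few or no UMIs, were then 2.56% higher and 3.11% lower for ILCs over DETCs. They were 2.64% and 3.17% for αβ T cells over DETCs and 0.686% and 1.12% for ILCs over αβ T cells. Between treatments they were 3.0% and 3.35% in DETCs, 4.28% and 5.31% in αβ T cells and 5.08% and 5.36% in ILCs. These shares also count genes without a ratio in the total.

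Of the ratios under up to 14 alternatives each, 920 stayed within their interval, 133 left it, and the 2 for Il9r above, which were past 2-fold, changed sign. Ratios under 2-fold that changed sign are counted among the first 2 of these numbers. They include Il7r, Il18r1 and Il2rg in ILCs over αβ T cells without the upper gene limit, at −1.43 and −1.78, −1.06 and −1.64, and −1.96 and −2.06. Il7r in ILCs over DETCs ranged from 3.02 to 6.49 and from 3.13 to 6.89 on the log2 scale, and Il18r1 from 3.19 to 7.29 and from 2.81 to 7.48, lowest without the upper gene limit. Of the levels under the alternatives, 635 stayed within their interval and 139 left it. Shares of cells were taken again at other depths, where 77 stayed within their interval and 103 left it. Removing keratin-rich barcodes, Il7r-bearing DETCs or cells with markers of γδ T cells that make IL-17 was chosen after seeing the data. Between treatments no paired analysis was possible because each treatment had 1 library, and for the same reason no library could be left out. Class ratios were computed within each library and given side by side. Genes with fewer than about 10 UMIs in a class had intervals of several log2 units.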
